A study of Mus musculus with 4 samples.

Results

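The clade B serpins, the intracellular branch of the serine protease inhibitor family, were examined in whole brain of mice with and without the RNA editing enzyme ADAR2. Array clusters were taken when a gene symbol began with Serpinb, which gave 28 clusters of 27 genes. The genes of 3 proteases that Serpinb1a inhibits, Elane, Ctsg and Prtn3, were added to them. The resulting 31 clusters were drawn from 33793 transcript clusters on the array, a transcript cluster being the group of probes assigned to a transcribed locus. Serpinb1a drew attention to the family by its low knockout signal on these same 4 arrays, so the genotype differences of all members are given as a description. Counts of members below an unadjusted p are given only beside the share over all clusters and serve as no test of the family. Of 29 RefSeq genes whose symbol begins with Serpinb, Serpinb1-ps1 and Serpinb9h had no cluster under that symbol and were not analysed here.

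Total RNA came from whole brains of adult female mice of strain 129SV, with 2 wild-type and 2 Adar2-/- brains and an array for each. Adarb1 is the gene of ADAR2, an enzyme that deaminates adenosines to inosines where RNA is double-stranded. Wild-type and knockout mice were siblings, and all of them carried the pre-edited Gria2 allele (Gria2 R/R) that allows mice without ADAR2 to survive. The measure is the authors' normalized log2 signal, on which a difference of 1 corresponds to a 2-fold change, and a positive difference means a higher signal in the knockout. Whole brain holds many cell types, so fewer cells of a type and less RNA per cell cannot be told apart.

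Serpins inhibit proteases by a suicide mechanism. The protease cuts an exposed loop of the serpin, the serpin refolds and the enzyme is left trapped in a covalent complex. Clade B members lack a classical secretion signal and act mainly inside cells, where they protect the cell from proteases that escape from granules or lysosomes. Serpinb1a, the mouse counterpart of human SERPINB1, inhibits neutrophil elastase (Elane), cathepsin G (Ctsg) and proteinase-3 (Prtn3), the serine proteases stored in neutrophil granules. In mouse the gene was duplicated, which left Serpinb1b and Serpinb1c in the same locus.

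In the study Serpinb1a was of interest as a predicted target of miR-497 in its unedited but not its edited form. ADAR2 edits this miRNA at base 2, within the seed, the stretch of bases 2 to 8 that pairs with target transcripts. The paper reports less Serpinb1a mRNA without ADAR2, and calls this surprising because maturation of miR-497 was also lower there. The mature sequences are shown because this pairing is the link the study drew between editing and Serpinb1a. They are the unedited RefSeq sequences (GRCm38.p6), written 5′ to 3′ with the seed in capitals.
mmu-miR-497a-5p: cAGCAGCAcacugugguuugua
mmu-miR-195a-5p: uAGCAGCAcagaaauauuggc
mmu-miR-195b: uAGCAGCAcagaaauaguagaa
mmu-miR-497a-3p: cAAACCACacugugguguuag
The first of these lies on the plus strand at chr11:70234730-70234751, and miR-195a-5p lies downstream of it at chr11:70235062-70235082. miR-195b comes from another chromosome, at chr2:56785825-56785846, and has the same seed as both. The opposite arm, miR-497a-3p (chr11:70234770-70234790), has a different seed. Target sites in Serpinb1a were not analysed here.

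The targeted gene was checked first. The Adarb1 signal was 10.50 and 10.45 on the wild-type arrays but 9.16 and 8.96 on the knockout arrays, so the arrays followed their labels. Median log2 signals were 6.03 to 6.09 on the 4 arrays. No cluster of the 33793 passed a limma p of 0.05 after Benjamini-Hochberg adjustment, while 2009 had an unadjusted limma p below 0.05. For 2 arrays against 2, the smallest two-sided p of an exact permutation test is 0.333. The methods name 2 mice of each genotype, and p-values measure only the spread between their arrays. Background was gauged from 5 clusters for genes of the Y chromosome, absent in females, whose signals were 3.49 to 5.43. The upper end was set by Sry, and the range ended at 4.40 without it.

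Serpinb1a (chromosome 13, 32842092 to 32851185, minus strand, 9 probes) had a log2 signal of 6.12 and 6.25 in wild type replicates 1 and 2. It had 5.37 and 5.17 in Adar2-/- replicates 1 and 2. Both wild-type arrays lay above the background range and above both knockout arrays, whereas both knockout arrays lay inside that range. This placement rests on the cluster of Sry, since without it the range ended at 4.40 and both knockout arrays lay above it. The means were 6.19 ± 0.092 (SD, n = 2) and 5.27 ± 0.14 (SD, n = 2), a difference of -0.92 (limma SE 0.12) and a measured fold of 1.89. Where the range with Sry is taken as background, the knockout signal may consist partly of background, which would make the measured fold too small. Since Serpinb1a was chosen for this low value, the fold may also be too large, and neither part was measured. Taken pair by pair, the knockout arrays were below the wild-type arrays by -0.75, -0.88, -0.95 and -1.08. The gap between replicates was 0.13 in wild type and 0.20 in the knockout. In an ordering of all clusters by difference, Serpinb1a stood in place 17 from the lowest, which puts it among the lowest 0.0503% of clusters. Of those 17 clusters 8 have a gene symbol.

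**Figure D1:**
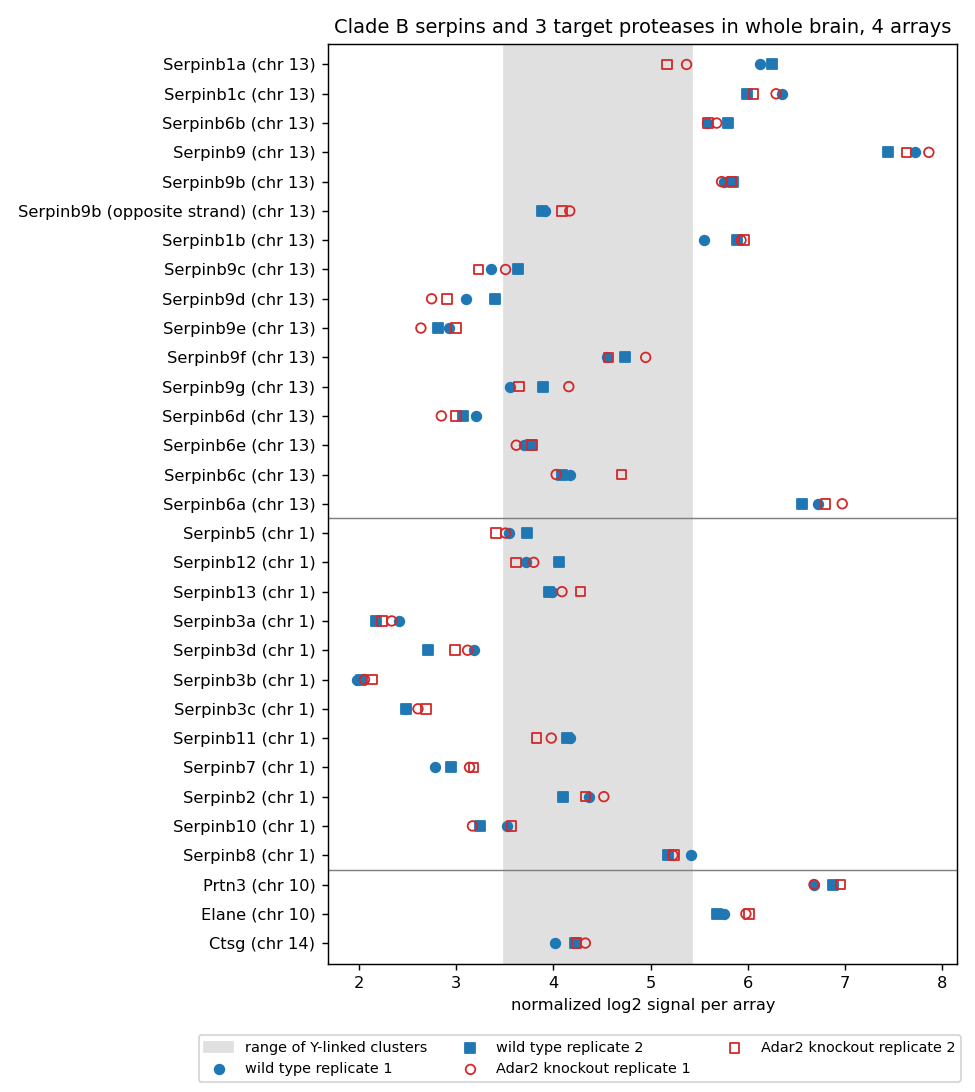
Normalized log2 signal (x axis) of each of the 31 clusters (y axis, by chromosome and position) on 2 wild-type arrays (filled) and 2 Adar2 knockout arrays (open), with the range of Y-linked clusters, 3.49 to 5.43, shaded. Serpinb1a has its 2 knockout points inside the shaded range and its 2 wild-type points to the right of it, while most other clusters have overlapping points or lie within or below the shading.

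Its closest paralogs, Serpinb1b and Serpinb1c, had smaller differences. Serpinb1b (chromosome 13, 33084103 to 33094380, plus strand) read 5.55 and 5.89 in wild type and 5.93 and 5.96 in the knockout. Its groups did not overlap, but in the opposite direction, and wild type replicate 1 stood below the other arrays. The difference was 0.23 (limma SE 0.14), and 0.055 without that array. Serpinb1c (chromosome 13, 32881397 to 32898161, minus strand), the next member along the chromosome, read 6.35 and 5.99 in wild type and 6.29 and 6.06 in the knockout. Its groups overlapped and the difference was 0.005 (limma SE 0.16), with a sign that turned with the scaling (-0.035 after median centring, -0.03 after quantile normalization) and with the array left out, from -0.18 without wild type replicate 2 to 0.19 without wild type replicate 1. The difference of Serpinb1a minus that of Serpinb1b was -1.14, and minus that of Serpinb1c it was -0.92. All 3 clusters are of the type that the file does not mark as able to cross-hybridize. These values are a description, since Serpinb1a was chosen on this contrast.

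The remaining chromosome 13 members belong to the Serpinb6 and Serpinb9 groups. Serpinb6a, the counterpart of human SERPINB6 and an inhibitor of cathepsin G among other proteases, read 6.72 and 6.56 in wild type and 6.97 and 6.80 in the knockout. The knockout arrays lay above the wild-type arrays by a narrow margin, with a difference of 0.25 (limma SE 0.12), and 0.16 to 0.33 with single arrays left out. Serpinb6b, at 5.58 and 5.80 in wild type and 5.68 and 5.59 in the knockout, overlapped between the groups and differed by -0.055, from -0.17 to 0.055 with single arrays left out. Serpinb6c, Serpinb6d and Serpinb6e had 4-array means below the Y-linked maximum. Their differences were 0.24, -0.22 and -0.035, and the value for Serpinb6c rested on Adar2-/- replicate 2, at 4.70 against 4.03 in replicate 1. The lowest difference among these 5 genes was thus that of Serpinb6d, at background signal.

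Serpinb9, which protects cytotoxic lymphocytes and other cells from granzyme B, read 7.72 and 7.44 in wild type and 7.86 and 7.63 in the knockout. The groups overlapped, and the difference was 0.17 (limma SE 0.15), or 0.31 without wild type replicate 1 and 0.025 without wild type replicate 2. Serpinb9b read 5.75 and 5.85 in wild type and 5.73 and 5.83 in the knockout, a difference of -0.02. A second cluster named Serpinb9b lies within the same span on the opposite strand and can cross-hybridize; it read 3.92 and 3.88 in wild type and 4.17 and 4.09 in the knockout, inside the background range. Serpinb9c, Serpinb9e, Serpinb9f and Serpinb9g overlapped between genotypes, with differences from -0.13 to 0.18. Serpinb9f and Serpinb9g also have probes that can cross-hybridize.

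Serpinb9d (chromosome 13, 33192959 to 33203980, plus strand) had the second lowest difference in the family. It read 3.10 and 3.40 in wild type and 2.75 and 2.91 in the knockout, so that the groups did not overlap and differed by -0.42 (limma SE 0.14). All 4 values lay below the lowest Y-linked value, so this difference was measured at background signal. The wild-type replicates differed by 0.30, and the difference was -0.57 without replicate 1 and -0.27 without replicate 2 of the wild type.

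**Figure D2:**
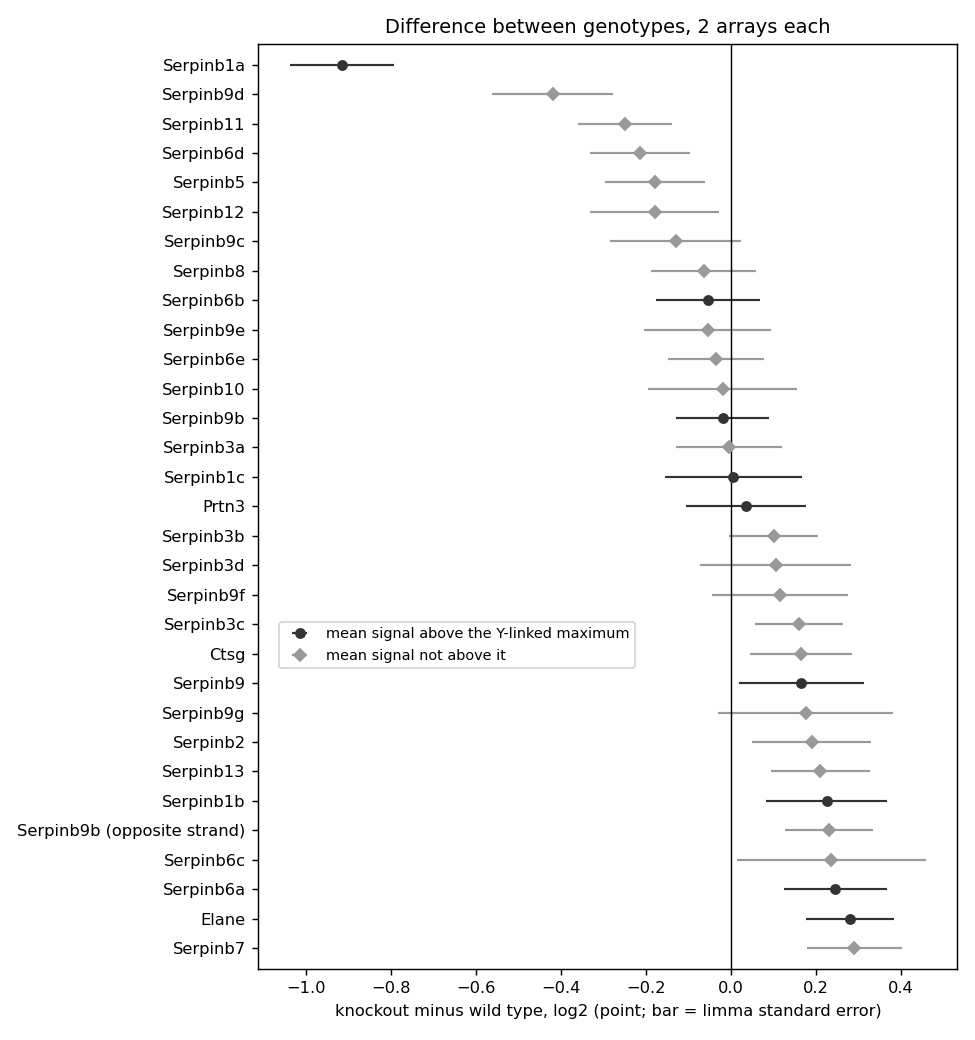
Knockout minus wild type on the log2 scale (x axis) for the 31 clusters (y axis), ordered by difference, with bars for the limma standard error and black circles for clusters whose 4-array mean exceeded the Y-linked maximum of 5.43. Serpinb1a lies at -0.92, apart from the other 30 clusters, which span -0.42 to 0.29.

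The 12 members on chromosome 1 form the other clade B locus, a stretch of 0.748 Mb best known for expression in skin and other epithelia and in myeloid cells. None had a mean above the Y-linked maximum. The mean closest to it was that of Serpinb8, an inhibitor of furin, which read 5.42 and 5.18 in wild type and 5.23 and 5.24 in the knockout. Serpinb2, known as plasminogen activator inhibitor-2, read 4.37 and 4.10 in wild type and 4.52 and 4.33 in the knockout, with overlapping groups. Serpinb7 (megsin) had the highest difference of the chromosome, at 2.79 and 2.95 in wild type and 3.14 and 3.18 in the knockout, a difference of 0.29 (limma SE 0.11) at signals below the whole Y-linked range.

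The rest of the chromosome 1 locus showed small differences in both directions. Serpinb11 read 4.17 and 4.14 in wild type and 3.98 and 3.83 in the knockout, and Serpinb5 (maspin) 3.55 and 3.73 against 3.51 and 3.41, so that in both genes the groups did not overlap and the knockout was lower. In Serpinb13, Serpinb3b and Serpinb3c, as in Serpinb7, the groups did not overlap either, and the knockout was higher. The 4 Serpinb3 genes, whose human counterparts are the squamous cell carcinoma antigens, had 4-array means below 3.49, the lowest Y-linked value, and differences from -0.005 to 0.16. Serpinb10, Serpinb12 and Serpinb13 differed by -0.02, -0.18 and 0.21. Against the background range without Sry, which ended at 4.40, Serpinb8 was the only chromosome 1 member with a mean above it. Signals inside the range do not show that a transcript is absent.

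The 3 target proteases of Serpinb1a had differences from 0.035 to 0.28. Elane, neutrophil elastase (chromosome 10, 79886312 to 79888216), read 5.75 and 5.68 in wild type and 5.98 and 6.01 in the knockout. The groups did not overlap, the replicates of each group lay within 0.07 of each other, and the difference was 0.28 (limma SE 0.10). Prtn3, proteinase-3 (chromosome 10, 79874476 to 79883174), read 6.68 and 6.88 in wild type and 6.68 and 6.95 in the knockout. It overlapped between genotypes and differed by 0.035 (limma SE 0.14), a value that became -0.005 after median centring, -0.065 without wild type replicate 1 and -0.10 without Adar2-/- replicate 2, and it is the immediate neighbour of Elane. Ctsg, cathepsin G (chromosome 14, 56099881 to 56102574), read 4.02 and 4.22 in wild type and 4.33 and 4.24 in the knockout, all within the background range. The groups were separate by a narrow margin, with a difference of 0.17 (limma SE 0.12), or 0.065 without wild type replicate 1 and 0.27 without wild type replicate 2. Elane and Prtn3 lie on the chromosome of the targeted gene, 2.47 and 2.46 Mb from the end of Adarb1. The part of this linkage in the difference of Elane was not tested.

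Counted over all 31 members, 4 had an unadjusted limma p below 0.05, against 5.95% of all clusters. Serpinb1a and Serpinb9d had lower signals in the knockout, a direction taken by 2.31% of all clusters at this p. Elane and Serpinb7 had higher ones, as 3.64% of all clusters had. The groups did not overlap in 14 members, 9 higher and 5 lower in the knockout, against 34.1% of all clusters. The difference exceeded the gaps between replicates of both genotypes in 11 members, where 23.1% of all clusters did so. Nothing is read from these counts, because the family was chosen with this contrast known. The median difference of the 28 serpin clusters was 0, with 14 above and 14 below 0, and that of all clusters was 0.005. Leaving out Serpinb1a it was 0.005. The count of 4 depended on single arrays, as it was 2 without wild type replicate 1, 2 without Adar2-/- replicate 1 and 1 without Adar2-/- replicate 2, and Serpinb1a was among those counted in each of these fits.

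The same difference was then read for the clusters around Serpinb1a, as a description of the locus. The chromosome 13 locus spans 1.16 Mb, and 18 clusters that are not clade B serpins lie within it or within 500 kb on either side. Among these 2 had an unadjusted limma p below 0.05, both with a higher signal in the knockout, a direction taken by 3.64% of all clusters at this p. Mylk4, a myosin light chain kinase, read 4.32 and 4.61 in wild type and 5.01 and 4.78 in the knockout (difference 0.43, limma SE 0.15, adjusted limma p 0.834). All of these Mylk4 signals lay inside the background range. The other is a cluster without a symbol (chromosome 13, 33567794), at 5.39 and 5.43 in wild type and 5.70 and 5.70 in the knockout. Wrnip1, a helicase-interacting protein whose plus-strand cluster ends 19.5 kb before Serpinb1a, differed by -0.06 on that cluster and by 0.01 on the one of the opposite strand. The differences of these 18 clusters ranged from -0.26 to 0.43 with a median of -0.03. As Serpinb1a was chosen for its low value, its distance from these neighbours is no result.

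**Figure D3:**
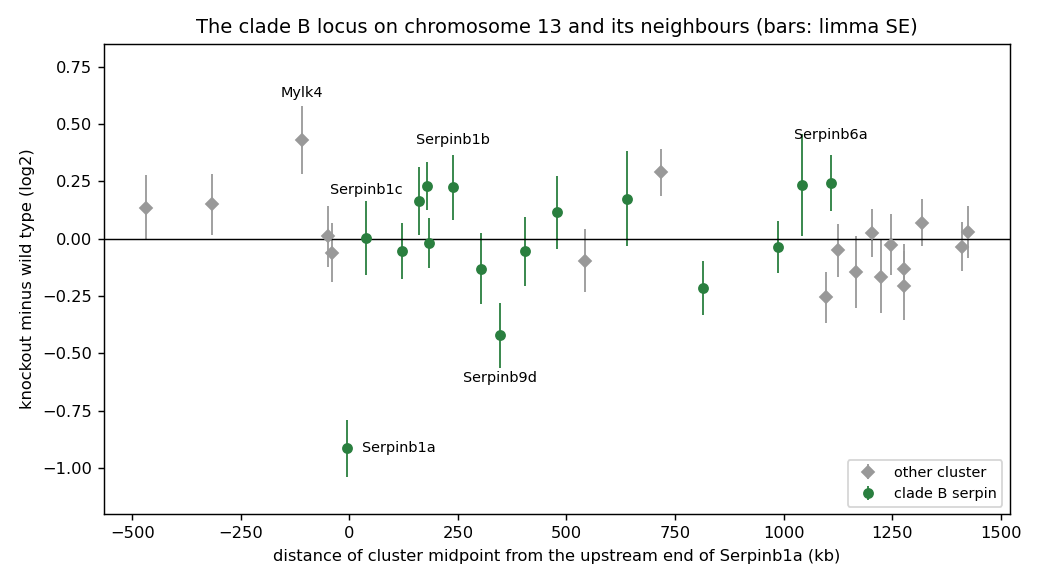
Knockout minus wild type on the log2 scale (y axis, bars for the limma standard error) against distance in kb from the upstream end of Serpinb1a (x axis), for clade B serpins (green circles) and 18 other clusters (grey diamonds). Serpinb1a at -0.92 has neighbours on both sides that differ by -0.06 to 0.01, namely Wrnip1 and Serpinb1c.

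The precursor locus of miR-497 was read on the arrays as well. The Mir497 cluster (chromosome 11) read 4.93 and 4.84 in wild type and 4.66 and 4.31 in the knockout. Both knockout arrays were below both wild-type arrays, with a difference of -0.40 (limma SE 0.15, unadjusted limma p 0.0353, adjusted limma p 0.834), and all 4 values lay inside the background range. Without Adar2-/- replicate 2 the difference was -0.23 and its unadjusted limma p was no longer below 0.05, as was also so without either wild-type array. Mir195 read 4.20 and 3.78 on the wild-type arrays and 4.03 and 3.76 on the others, with overlapping groups and a difference of -0.095. The array measures the precursor region and not the mature miRNA.

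Serpins of the other clades, most of which are secreted, served as the comparison closest to the family. The unadjusted limma p was below 0.05 in 6 of their 35 clusters (17.1%, against 5.95% of all clusters), 4 lower and 2 higher in the knockout, and 0 passed the adjusted limma p of 0.05. Their median difference was 0.04. Serpina3n, an inhibitor secreted by reactive astrocytes that acts on cathepsin G among others, read 10.10 and 10.14 in wild type and 9.54 and 9.66 in the knockout. Serpine2, known as protease nexin-1 and an inhibitor of thrombin in brain, read 9.88 and 10.04 in wild type and 9.51 and 9.55 in the knockout. In both genes the knockout arrays lay clearly below the wild-type arrays and all values were well above background. The differences were -0.52 (limma SE 0.11, unadjusted limma p 0.00317) for Serpina3n and -0.43 (limma SE 0.11, unadjusted limma p 0.0091) for Serpine2, with an adjusted limma p of 0.834 for each.

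Of the others, Serpina9 read 6.38 and 6.26 in wild type and 5.91 and 5.88 in the knockout, a difference of -0.43 (unadjusted limma p 0.00794). Serpina1c, one of the duplicated alpha-1 antitrypsin genes, read 4.78 and 4.83 in wild type and 4.27 and 4.07 in the knockout. It differed by -0.64 (unadjusted limma p 0.00186), the lowest difference among these serpins, at signals within the Y-linked range. The paralog Serpina1d was higher in the knockout, with 3.29 and 2.81 against 2.53 and 2.57, and so was Serpina3b, with 3.62 and 3.93 against 3.02 and 3.44. Both read at background, with unadjusted limma p of 0.0293 and 0.026. The knockout replicates of Serpina1d differed by 0.48 and the wild-type replicates of Serpina3b by 0.42, beside genotype differences of 0.50 and 0.55. Among serpins well known in brain, 3 showed overlapping groups. Serpini1 (neuroserpin, the inhibitor of tissue plasminogen activator) differed by 0.04, Serping1 (C1 inhibitor) by -0.045 and Serpinf1 (pigment epithelium-derived factor) by 0.095. Serpinh1, a collagen chaperone, read 7.65 and 7.72 against 7.54 and 7.55, a difference of -0.14 (unadjusted limma p 0.224).

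**Figure D4:**
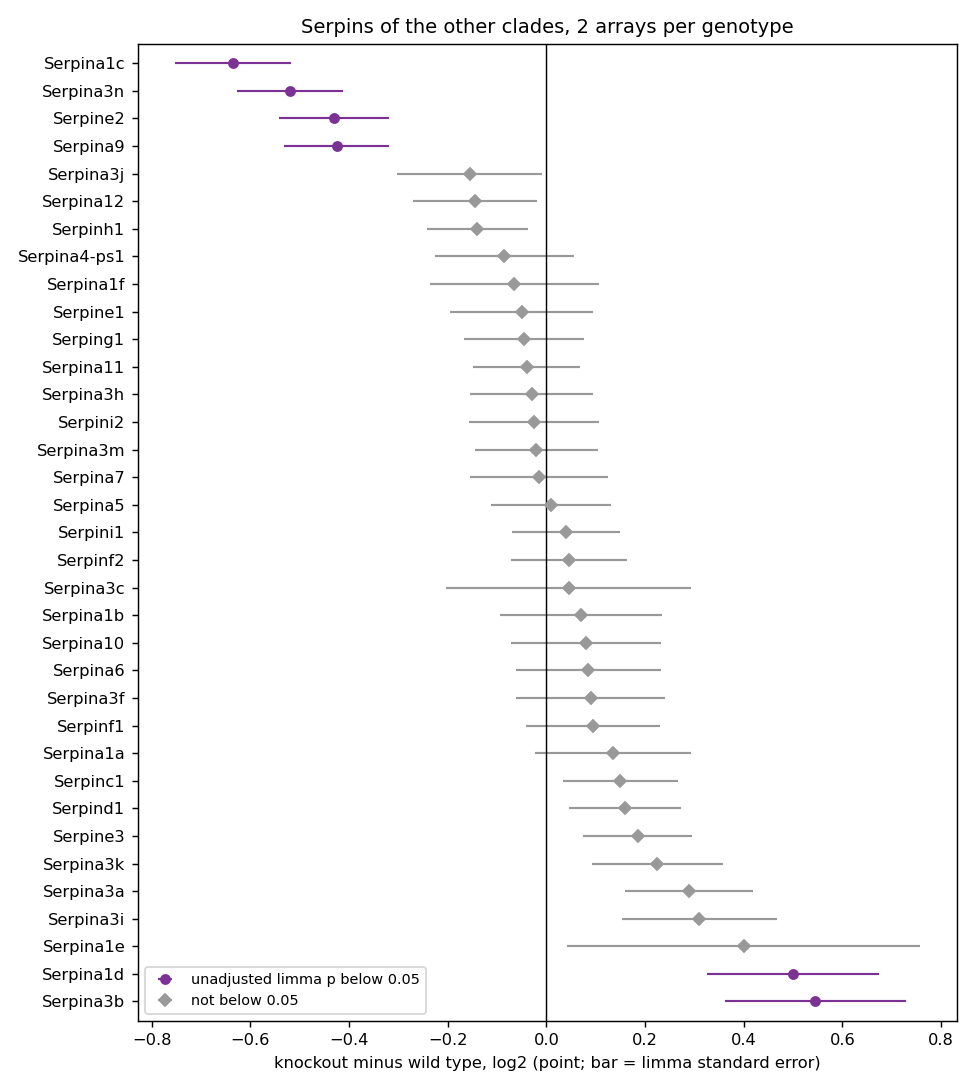
Knockout minus wild type on the log2 scale (x axis, bars for the limma standard error) for 35 clusters of serpins outside clade B (y axis), with purple circles for an unadjusted limma p below 0.05. Serpina1c, Serpina3n, Serpine2 and Serpina9 lie at -0.64 to -0.43 and Serpina1d and Serpina3b at 0.50 and 0.55.

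The proteases that clade B serpins meet were counted against the 5.95% of all clusters with an unadjusted limma p below 0.05. Among 15 granule serine proteases other than the 3 members, Cma1 (mast cell chymase) was the only cluster with an unadjusted limma p below 0.05, at 3.54 and 3.60 in wild type and 4.06 and 3.78 in the knockout. It differed by 0.35 (unadjusted limma p 0.0385, adjusted limma p 0.834) at background signal. Gzmf, Mcpt4 and Gzmc followed with differences of 0.28, 0.22 and -0.14, and Gzmb, the granzyme that Serpinb9 inhibits, differed by -0.02. The median of these proteases was 0.025.

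Some genes stand in more than 1 of the following lists. Of 10 clusters for protease partners of clade B members, none had an unadjusted limma p below 0.05, nor did any of 13 cathepsins. Casp1, the inflammasome caspase that human SERPINB1 restrains, differed by 0.20, Ctsl and Ctss each by -0.085 and F2 by 0.05. Plau and Plat, the plasminogen activators that Serpinb2 can inhibit, differed by 0.045 and -0.03. Ctsc, which activates the granule serine proteases, read 7.22 and 7.27 in wild type and 7.07 and 6.99 in the knockout. Its groups did not overlap, and the difference was -0.22 (unadjusted limma p 0.0871). Ctsa and Ctso differed by -0.17 and 0.16. Among 11 inflammasome clusters, again 0 had an unadjusted limma p below 0.05. Their median difference was 0.085, or 0.045 after median centring, and Nlrc4 and Il1b differed by 0.28 and -0.15. Gsdmd, the pore-forming gasdermin, differed by 0.14 on the cluster that spans the gene and by 0.20 on a short cluster of the opposite strand. In Aim2, Casp1, Casp12, Il18, Nlrc4 and both Gsdmd clusters the groups did not overlap and the knockout was higher. Of all 33793 clusters, 5970 were separate in that direction. Aim2, Casp1, Casp12 and Nlrc4 had 4-array means below the Y-linked maximum.

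Markers of cells that could carry these transcripts were read on the same arrays. Counts in these lists stand against the same 5.95% of all clusters. The 16 neutrophil marker clusters included 0 with an unadjusted limma p below 0.05, and their median difference was 0.07, or 0.21 without wild type replicate 1 and 0.02 without wild type replicate 2. The mean log2 signal of the list was 5.41 and 5.16 in wild type and 5.38 and 5.35 in the knockout. The largest differences were those of Lcn2 (0.34), Ms4a3 (0.30), S100a9 (0.30) and Ngp (-0.29). Lcn2 read 6.04 and 5.63 in wild type and 6.38 and 5.97 in the knockout, with overlapping groups, and S100a9 5.42 and 5.36 against 5.89 and 5.49, without overlap. Mpo, myeloperoxidase, read 5.23 and 5.31 in wild type and 5.42 and 5.21 in the knockout, and S100a8 4.90 and 4.38 against 4.44 and 4.69. Mpo and S100a8, which are defining neutrophil genes, lay within the Y-linked range in both genotypes, and 6 of the 16 clusters had a mean above it. The mature oligodendrocyte list had means of 9.89 and 9.97 in wild type and 9.92 and 9.96 in the knockout, and 1 of 16 clusters, Mog, was counted, with a difference of -0.35.

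Microglial markers had a median difference of -0.14 (from -0.22 without Adar2-/- replicate 2 to -0.05 without Adar2-/- replicate 1), with means of 7.85 and 7.89 in wild type and 7.68 and 7.78 in the knockout. Of 18 clusters, Cd68 and Olfml3 had an unadjusted limma p below 0.05, with differences of -0.30 and -0.35. Alas2, the first enzyme of haem synthesis in red cell precursors, read 8.71 and 7.90 in wild type and 7.34 and 7.80 in the knockout, a difference of -0.74 (unadjusted limma p 0.0467). The gap between the wild-type replicates, 0.81, was larger than this difference, with wild type replicate 1 standing above the other arrays. Other clusters of the red cell list went both ways, up to 0.53 in a cluster of Hbb-b1. The list median was -0.265, or -0.0375 without Adar2-/- replicate 1 and -0.555 without Adar2-/- replicate 2. The part of these shifts in the signal of Serpinb1a was not tested.

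The remaining lists were counted in the same way. Astrocyte markers had 1 of 9 clusters counted and lower (Gja1), oligodendrocyte precursors 1 of 5 and lower (Bmp4), olfactory bulb 1 of 6 and lower (Cdhr1), squamous epithelium 1 of 14 and lower (Krt4) and endothelium 1 of 11 and higher (Slco1a4). Neuronal, choroid plexus, meningeal fibroblast and T and NK cell markers had 0 each. Pituitary markers had 3 of 10 counted and higher, the hormone genes Prl (difference 4.12), Gh (3.17) and Pomc (0.51), and salivary gland markers 2 of 15 and higher, Dcpp2 (0.68) and Prh1 (0.40). The olfactory bulb mean was 6.87 in Adar2-/- replicate 2 and 7.40 to 7.48 on the other arrays, and without that array the median difference of the list turned from -0.20 to 0.04. The salivary mean was 6.43 in Adar2-/- replicate 1 and 5.05 to 5.16 on the other arrays. The pituitary mean was 5.25 and 4.96 in wild type and 6.13 and 5.84 in the knockout. The part of these shifts in the members' differences was not tested.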

How the data were processed

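RNA from the brains of 2 mice per genotype was prepared with the Ambion WT Expression Kit and run on an Affymetrix mouse GeneChip at a core facility. The authors deposited normalized log2 signals per transcript cluster to 2 decimals. Processing notes name Affymetrix Expression Console and RMA, with versions and genome build not given in the sources used here. All 30 member genes overlapped their RefSeq spans on GRCm38.p6, and file coordinates are printed. The authors' own mean, ratio, fold change and p-value columns were not used.

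The comparison of genotypes used lmFit and eBayes of limma 3.58.1 under R 4.3.3, two-sided, on all 33793 clusters, with Benjamini-Hochberg adjustment, no filter and no further scaling. Printed intervals are standard errors from this fit, or standard deviations of the arrays where marked SD. Members and gene lists were chosen with earlier results of these data known. Named genes were the proteases, all chromosome 13 members, members above the Y-linked maximum, members with an unadjusted p below 0.05 and separate groups, and pathway list genes below that p or, where fewer than 2 were, the 4 with the largest differences. Genes beyond this rule were named after their values were seen. Counts and lists were made in Python 3.11.15 with pandas 2.3.3, and the fit was tested on simulated data. Alternatives were other scalings, filters, variance models and left-out arrays. The result of 1 marker gene is not reported here.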

Additional observations from a re-analysis of the deposited data

How the results depend on the processing

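The difference of Serpinb1a kept its direction in all 11 alternatives that gave a value, from -1.02 without Adar2-/- replicate 1 to -0.82 without Adar2-/- replicate 2. It was -0.96 after median centring and -0.96 after quantile normalization. Among clusters above the median signal it had no value, because only 4 members passed that filter. The 4 members with an unadjusted p below 0.05 became 0 under this filter and 2 with an intensity trend, and leaving out 1 array at a time gave 1 to 3. Median centring and quantile normalization each gave 3, with Serpinb11 in place of Elane and Serpinb7. The deviations of same-numbered arrays were nearly uncorrelated across clusters (Pearson's r of 0.0516). This value does not show whether the mice or the array runs were paired. With the replicate number as a block there were 3, Elane being lost, and 0 clusters passed the adjusted p.

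No cluster passed the adjusted p of 0.05 in 10 of 11 alternatives, whereas 15 did with a pooled variance without shrinkage. The 2009 clusters with an unadjusted p below 0.05 became 989 among clusters above the median signal, where fewer clusters were tested, and 1221 to 1801 with single arrays left out, the lowest without wild type replicate 1. The 8 pathway clusters became 3 above the median signal and 5 with pooled variance, and 5 to 7 with single arrays left out. The 15 marker clusters became 9 to 15 with single arrays left out, 9 being without wild type replicate 1, and 12 to 18 under the other alternatives. Where not stated, the cause was not tested. Of the pathway genes counted, Serpina3n, Serpina1c and Serpina9 kept an unadjusted p below 0.05 in every alternative that gave a value, Serpine2 lost it without Adar2-/- replicate 1 (-0.41), and Cma1, Serpina1d, Serpina3b and Mir497 lost it in several. No counted gene changed direction. The background taken without Sry, an alternative chosen after seeing the data, put 11 instead of 9 members above it. The number of arrays limits the precision of all values.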
